A study of Sus scrofa with 36 samples.

Results

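The step from presomitic mesoderm to somite was followed in 6 of the 36 bulk RNA-seq libraries of a study of pig (Sus scrofa) induced pluripotent stem cells (iPSCs). The 6 were chosen by their labels, as the 3 libraries labelled presomitic mesoderm (PSM) on day 2 and the 3 labelled somite on day 3. Both groups came from one line, clone 8, so they describe 1 clone. Day 2 cells had been kept in S1LDN medium and day 3 cells in S2LDN medium, whose compositions were not given in the sources used here. Every difference below therefore joins a day of culture with a change of medium, and these cannot be told apart. The 3 libraries of day 0 (undifferentiated clone 8 cells freed of their MEF feeder layer) and the 3 of day 1 (mesendoderm, in E8A100ch3 medium) entered the same fit and give the earlier levels. The labels do not state that replicate libraries are separate cultures; p-values here reflect only how far the libraries scatter, possibly a technical scatter.

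Presomitic mesoderm is the strip of unsegmented tissue on either side of the embryo's midline that is laid down from the primitive streak and tail bud. FGF and Wnt signals are high at its tail end, where they hold cells in an immature state, and retinoic acid made in the somites opposes them from the front. Oscillating Notch pathway genes, the segmentation clock, and a front of falling FGF and Wnt signal set where a block of cells is cut off as a somite. A new somite rounds up into an epithelial ball, which later gives the sclerotome (vertebrae and ribs) and the dermomyotome (skeletal muscle and dermis).

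The 6 libraries held 4929561 to 8490476 estimated counts. Rank correlations (Spearman's rho across genes) lay between 0.9777 and 0.9848 within a group and between 0.8513 and 0.8846 across the groups. Levels are in TPM, a share of a library's transcripts that corrects for gene length. Fold changes are log2 values ± SE of day 3 over day 2 from edgeR's quasi-likelihood test, fitted on counts over all 12 libraries of days 0 to 3. P-values were adjusted by Benjamini-Hochberg across all 13059 tested genes, and genes are said to pass, to rise or to fall where the adjusted p was below 0.05, whatever the size of the change. Fewer cells of a type and less RNA per cell cannot be told apart in bulk RNA.

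Of the 3 genes taken to mark the somite, 2 rose and 1 did not pass. FOXC2, a forkhead factor of the forming somite, stood at 2.45, 1.51 and 1.31 TPM on day 2 and at 16.4, 10.98 and 14.9 TPM on day 3 (log2 fold change 2.83 ± 0.43, adjusted p = 5.02e-05). EYA1, a transcriptional cofactor of homeobox proteins, stood at 1.78, 1.33 and 2.39 TPM and then at 29.9, 21.4 and 24.6 TPM (3.51 ± 0.30, adjusted p = 9.99e-08). The day 2 and day 3 libraries did not overlap for either gene. The same held for 7397 of the 13059 tested genes (56.6%), in either direction. Each later mention of groups without overlap is to be read against that share. MEOX1, a homeobox gene that marks early somites, stood at 1.02, 1.80 and 0.410 TPM on day 2 and at 2.09, 1.60 and 2.98 TPM on day 3, with overlapping groups (0.89 ± 0.62, adjusted p = 0.24). MEOX1 did pass in limma's test on log2(TPM + 1), at 0.67 with an adjusted p of 0.0305. It also passed in that test without the filter on low counts (adjusted p = 0.0402). MEOX1 passed in no other alternative setting, and not in limma's test with a smaller constant added to TPM. On the log2(TPM + 1) scale the median of all tested genes was 0.21. The label of day 2 matched its own markers: TBX6, MSGN1 and HES7 were at 16.1 TPM or more in each day 2 library and at 2.84 TPM or less in each day 3 library.

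The change was broad. Of the 13059 genes tested, 6678 passed (51.1%), 3466 of them higher on day 3 (26.5% of those tested) and 3212 lower (24.6%). A change of at least 2-fold was found for 2434 higher and 1348 lower genes, and one of at least 8-fold for 570 higher and 196 lower genes. Higher genes made up 51.9% of those that passed on counts and 64.3% in the limma test on log2(TPM + 1). The median log2 fold change of all tested genes was 0.0408 on the count scale, against a median log2 ratio of mean TPM of 0.252, so TPM values stand somewhat higher on day 3 than the fold changes printed beside them. Lists of genes are described by how many tested members passed, to be read against the 26.5% and 24.6% above, and by their median. Members that failed the filter on low counts are given as untested, and genes that share a list's theme are counted in each list that holds them.

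**Figure D1:**
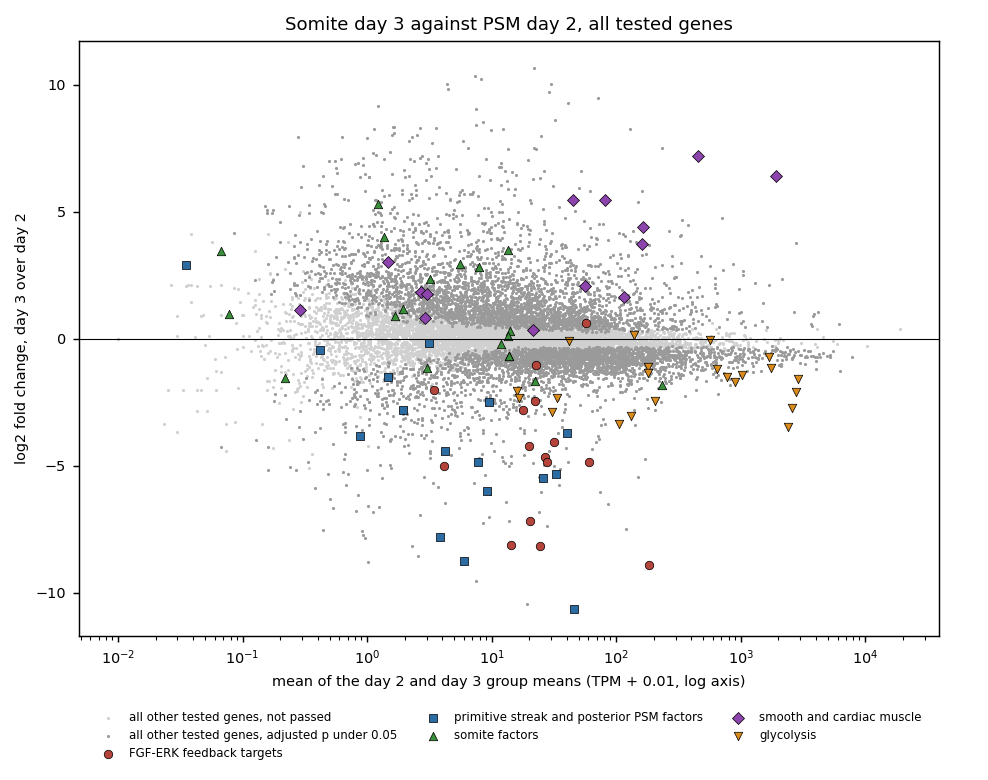
Log2 fold change of day 3 over day 2 for each of the 13059 tested genes against its level (mean of the group means in TPM, log axis). Grey points are genes outside the 5 lists drawn in colour, and genes at 0 in a whole group are drawn at their fitted value; targets of FGF-ERK signalling and PSM factors lie mostly below the zero line, and smooth and cardiac muscle genes lie above it.

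Most genes of the primitive streak and posterior PSM left little signal on day 3. Of 17 listed genes 16 were tested, and 12 fell, none rose and 4 did not pass, with a median log2 fold change of -4.11. Their summed level ran from 314.4 to 448 TPM in the day 2 libraries and from 17.8 to 20.7 TPM on day 3. MSGN1, the bHLH factor that drives PSM formation (chromosome 3 of Sscrofa11.1, 120033980 to 120034624), stood at 104, 96.6 and 72.8 TPM on day 2 and at 0 in all 3 day 3 libraries. Set against a floor of 3 counts over the day 3 group it was at least 148-fold lower. TBX6, the T-box factor that commits cells to the paraxial fate (chromosome 3, 18271983 to 18277864), stood at 74.1, 39.4 and 38.4 TPM and then at 1.26, 0.230 and 2.84 TPM (log2 fold change -5.49 ± 0.55, adjusted p = 5.71e-07). T, the gene of brachyury, stood at 67.5, 49.9 and 72.7 TPM and then at 2.47, 2.44 and 0.930 TPM (-5.30 ± 0.28). Neither gene's groups overlapped, and T had peaked earlier, at a mean of 307 TPM on day 1.

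The caudal homeobox genes, which keep the tail bud and trunk growing, followed the same course. CDX2 stood at 98.6, 52.1 and 71.7 TPM on day 2 and at 3.98, 9.51 and 6.20 TPM on day 3 (log2 fold change -3.70 ± 0.35), the highest day 3 level of the 3 CDX genes. CDX4 fell from 17.8, 16.4 and 19.7 TPM to at most 0.720 TPM (-5.98 ± 0.37). CDX1 went from 9.68, 4.83 and 8.56 TPM to 0 in all day 3 libraries, at least 21.4-fold lower. EVX1, a homeobox gene of the streak and tail bud, was also at 0 in all day 3 libraries, after 13.4, 14.2 and 8.43 TPM, and was at least 39.0-fold lower. SP5, a zinc finger gene switched on by Wnt, kept more of its level, with 17.1, 11.9 and 18.1 TPM followed by 2.91, 4.65 and 2.27 TPM (-2.49 ± 0.37).

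Genes of the streak and mesendoderm that had peaked on day 1 fell further between days 2 and 3. EOMES, a T-box factor of mesendoderm, had a mean of 355 TPM on day 1, stood at 9.68, 6.30 and 7.96 TPM on day 2 and was at 0.540 TPM or less on day 3 (log2 fold change -4.39 ± 0.33). MIXL1 (-4.85 ± 0.44) and LHX1 (-2.79 ± 0.48), homeobox genes of the same stage, fell as well, and GSC, the homeobox gene goosecoid, held 20 counts on day 2 and 1 on day 3, a ratio of 17.1 with a 95% counting interval of 2.73 to 708.5. SP8 (-1.48 ± 0.63, adjusted p = 0.0593) and MESP1 (-0.43 ± 0.61) were among the 4 that did not pass, although SP8 passed without day 2 library 3 (-1.85, adjusted p = 0.0288). NKX1-2, a homeobox gene of tail bud progenitors, was untested, with 2.80, 1.62 and 1.37 TPM on day 2 and 0 in each day 3 library.

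The clock genes that mark cycling PSM fell, whereas Notch receptors rose or did not pass. Of 20 genes of the segmentation clock and Notch pathway 17 were tested, and 5 fell, 3 rose and 9 did not pass. The median of 0.00057 was close to that of all genes, and its sign differed between alternative settings. HES7, the oscillating repressor at the core of the clock (chromosome 12, 53334350 to 53339336), stood at 21.8, 19.1 and 16.1 TPM on day 2 and at 0.310, 0 and 0.160 TPM on day 3. It held 454 counts on day 2 and 3 on day 3, a ratio of 129 with a 95% counting interval of 43.98 to 629.5. LFNG, the glycosyltransferase that tunes Notch in the clock, stood at 27.4, 20.2 and 21.8 TPM and then at 4.46, 2.74 and 2.13 TPM (log2 fold change -3.08 ± 0.23). Every day 3 library lay below every day 2 library for both genes.

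The ligands DLL1 and DLL3, which are expressed throughout the PSM, fell less far. DLL1 stood at 51.1, 34.3 and 40.6 TPM on day 2 and at 14.1, 12.6 and 11.2 TPM on day 3 (log2 fold change -1.94 ± 0.23). DLL3 stood at 32.1, 21.2 and 21.7 TPM and then at 5.38, 3.83 and 4.14 TPM (-2.69 ± 0.20). HEY1, a Notch target, fell from 20.5, 22.2 and 17.0 TPM to at most 1.80 TPM (-4.41 ± 0.32). The related HEY2 passed in the other direction (1.10 ± 0.40, adjusted p = 0.0298) with overlapping groups, and did not pass without day 2 library 1 (adjusted p = 0.108), day 2 library 3 (0.124) or day 3 library 2 (0.137).

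Among the receptors, NOTCH3 stood at 7.52, 3.10 and 3.54 TPM on day 2 and at 30.5, 17.8 and 16.9 TPM on day 3 (log2 fold change 2.01 ± 0.37, adjusted p = 0.000321). NOTCH2 stood at 8.97, 5.13 and 5.60 TPM and then at 24.4, 14.8 and 17.6 TPM (1.32 ± 0.30, adjusted p = 0.00162). Both receptors were higher in every day 3 library than in every day 2 library. NOTCH1 (0.44 ± 0.41), the ligands JAG1 (-0.19 ± 0.21) and JAG2 (0.31 ± 0.39), and the targets HES1 (-0.05 ± 0.59), HES4 (0.88 ± 0.54) and NRARP (-0.53 ± 0.55) did not pass. HES1 and NRARP were each lowest in day 3 library 2, at 0.510 and 0.170 TPM, where the other day 3 libraries had at least 4.86 and 1.75 TPM. HES4 passed without day 2 library 1 (1.53, adjusted p = 0.0465).

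Genes of the segment boundary split. Of 13 listed genes 12 were in the table, 9 were tested, 5 rose, 2 fell and 2 did not pass (median 1.33). EFNB2, the ephrin that marks the posterior part of each somite, stood at 6.51, 4.51 and 5.24 TPM on day 2 and at 58.5, 56.6 and 30.4 TPM on day 3 (log2 fold change 2.93 ± 0.35, adjusted p = 4.31e-06). EFNA1, another ephrin, stood at 16.0, 16.5 and 18.4 TPM and then at 79.1, 96.1 and 83.8 TPM (1.90 ± 0.22). TBX18, the T-box factor of the anterior part of the somite, stood at 1.30, 1.60 and 1.12 TPM and then at 12.4, 12.1 and 8.13 TPM (2.80 ± 0.36). A gene of the anterior and one of the posterior part both rose, and EPHA4, an Eph receptor of the forming boundary and the anterior somite, fell from 26.7, 16.2 and 25.5 TPM to 13.6, 10.7 and 15.8 TPM (-1.0 ± 0.23, adjusted p = 0.00161).

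The genes that act at the moment of boundary formation were near the limit of detection on both days. MESP2, the bHLH factor that positions the boundary, had 4 counts over the day 2 libraries and 5 over the day 3 libraries. RIPPLY2, its repressor, had 0 and 5 counts and was untested. RIPPLY1, the related gene, fell from 3.85, 2.69 and 1.18 TPM to 0, 0.200 and 0.580 TPM (log2 fold change -3.37 ± 0.91, adjusted p = 0.00555). UNCX, a gene of the posterior somite, had 0 and 2 counts, DMRT2, a somite patterning gene, had 0 and 10, and both were untested. CDH6, a cadherin, rose from at most 1.39 TPM to 5.19, 2.86 and 1.56 TPM (1.33 ± 0.36, adjusted p = 0.00556), but did not pass without day 3 library 1 (adjusted p = 0.0594). CER1, a secreted antagonist, held 3 counts on day 2 and 23 on day 3, and the protocadherin gene PCDH19 did not pass (-0.49 ± 0.31).

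Somite factors moved in both directions. Of 21 listed genes 19 were tested, 6 rose, 3 fell and 10 did not pass, and the median was 0.89. The shares of 6 and 3 in 19 lay near the shares over all genes. Besides FOXC2 and EYA1, EYA4 rose from 3 counts to 125, a ratio of 48.8 with a 95% counting interval of 16.3 to 239.6. PRRX1, a homeobox gene of mesenchyme, stood at 1.00, 1.59 and 0.770 TPM on day 2 and at 12.99, 8.03 and 8.93 TPM on day 3 (log2 fold change 2.95 ± 0.38). SIM1, a bHLH gene of the lateral somite, stood at 0.850, 0.630 and 1.66 TPM and then at 7.87, 3.69 and 4.54 TPM (2.37 ± 0.30). FOXD1, a forkhead gene, went from at most 0.240 TPM to 3.17, 1.26 and 3.29 TPM (4.02 ± 0.68).

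Other genes of the early somite were at their higher level on day 2. ALDH1A2, the enzyme that makes retinoic acid in the paraxial mesoderm (chromosome 1, 113932722 to 114037059), stood at 359, 309 and 376 TPM on day 2 and at 112, 66.8 and 166 TPM on day 3 (log2 fold change -1.83 ± 0.23, adjusted p = 6.26e-06). FOXC1, the close relative of FOXC2, stood at 43.0, 26.2 and 27.8 TPM and then at 12.2, 10.8 and 12.9 TPM (-1.64 ± 0.26). FOXC1 was the higher of the pair in each day 2 library and FOXC2 in each day 3 library. SIX4 fell as well, from 16.8, 15.0 and 16.0 TPM to 11.8, 13.3 and 9.99 TPM (-0.67 ± 0.17), a call that was lost in the limma tests on TPM (adjusted p = 0.0989 to 0.105).

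TCF15, the bHLH factor needed for somites to become epithelial, stood at 16.8, 14.0 and 16.7 TPM on day 2 and at 12.96, 10.8 and 11.3 TPM on day 3, without overlap but also without passing (log2 fold change -0.67 ± 0.29, adjusted p = 0.062). TWIST1 (0.12 ± 0.22) and DACH1 (0.33 ± 0.20), present at 9.31 to 19.0 TPM in each of the 6 libraries, did not pass either. EYA2 (1.19 ± 0.64), SIX2 (-1.14 ± 0.80), ZIC1 (-1.54 ± 0.84) and PAX7 (0.99 ± 1.26) were low and did not pass, and PAX7 never exceeded 0.140 TPM. EYA2 passed without day 3 library 2 (1.61, adjusted p = 0.0354) and ZIC1 without day 3 library 3 (-3.37, adjusted p = 0.0223). PAX3, which is switched on in the dermomyotome, was untested at 0, 0.120 and 0.340 TPM on day 2 and 0.70, 0.54 and 1.30 TPM on day 3. MEOX2 was untested with 2 and 4 counts.

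**Figure D2:**
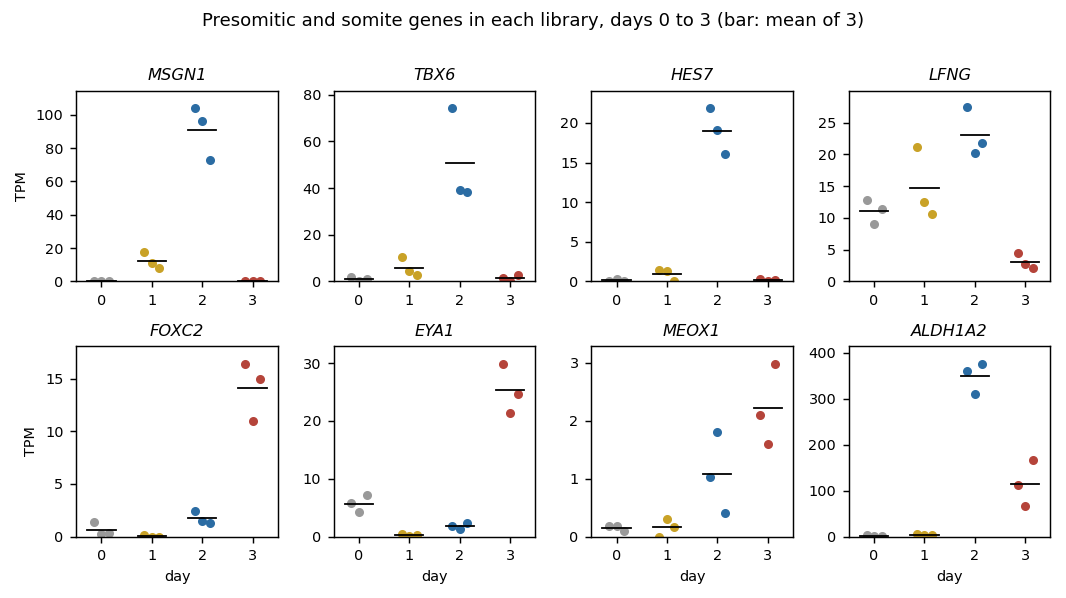
TPM of 8 presomitic and somite genes in each of the 12 libraries (points, 3 a day) from day 0 to day 3, with the mean of each day as a bar, on axes that start at 0. MSGN1, TBX6, HES7 and LFNG peak on day 2 and drop on day 3, FOXC2 and EYA1 reach at least 10.98 and 21.4 TPM in each day 3 library, MEOX1 stays under 3 TPM, and ALDH1A2 falls without vanishing.

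Markers of the next derivatives were sparse. Of 13 sclerotome genes, 7 were tested, 5 rose, 1 fell and 1 did not pass (median 1.88). SOX9, a chondrogenic factor, stood at 2.06, 1.89 and 1.63 TPM on day 2 and at 11.8, 7.76 and 6.45 TPM on day 3 (log2 fold change 2.00 ± 0.32), and COL2A1, type II collagen, stood at 16.5, 9.47 and 9.00 TPM and then at 53.1, 43.6 and 51.6 TPM (1.88 ± 0.29). The genes that define the sclerotome itself were low: PAX1 was at most 0.470 TPM on either day and did not pass (-0.25 ± 0.68), and PAX9 (3 and 22 counts) and NKX3-2 (3 and 2 counts) were untested. The count of 5 fell to 3 on leaving out any one library other than day 2 library 1. Of 14 dermomyotome and myogenic genes 10 were untested. MET, the receptor of migrating muscle precursors, was the 1 that rose (1.54 ± 0.30), and MYF5 had 0 and 2 counts.

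Feedback genes that FGF signalling through ERK switches on are widely used as readouts of its activity. All 15 listed genes were tested, 14 fell and 1 rose, with a median log2 fold change of -4.64. DUSP6, the phosphatase that switches off ERK (chromosome 5, 93303058 to 93307510), stood at 361, 391 and 342 TPM on day 2 and at 1.21, 0.580 and 0.840 TPM on day 3 (-8.90 ± 0.22, adjusted p = 7.59e-14). SPRY4, a sprouty inhibitor of the pathway, stood at 38.5, 22.8 and 23.5 TPM and then at 0.080, 0.080 and 0.160 TPM (-8.13 ± 0.52). The ETS factors ETV5 and ETV4 went from 54.2, 46.2 and 44.9 TPM to at most 0.3 TPM (-8.14 ± 0.27) and from 52.7, 31.9 and 35.5 TPM to at most 0.550 TPM (-7.16 ± 0.43). The day 3 levels of these 4 genes were also under those of undifferentiated cells, where DUSP6 had a mean of 195 TPM, ETV5 53.2 TPM, ETV4 43.5 TPM and SPRY4 20.9 TPM. DUSP5, a phosphatase of the same family, was the 1 that rose, from 50.1, 40.7 and 31.9 TPM to 87.7, 66.1 and 67.9 TPM (0.64 ± 0.18, adjusted p = 0.00773).

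Ligands and receptors of the FGF pathway did not share this fall. Of 16 listed genes 12 were tested, 4 rose, 2 fell and 6 did not pass. The shares of 4 and 2 in 12 lay near the shares over all genes, and the sign of the median (0.11) differed between alternative settings. FGF10, a ligand of mesenchyme, stood at 3.08, 3.23 and 2.50 TPM on day 2 and at 28.6, 20.7 and 40.4 TPM on day 3 (log2 fold change 3.13 ± 0.25). FGFR2 (chromosome 14, 131183095 to 131285001) stood at 5.46, 5.04 and 3.94 TPM and then at 73.7, 73.6 and 70.8 TPM (3.71 ± 0.21). FGFRL1, a receptor without a kinase domain, rose from 10.1, 5.72 and 4.61 TPM to 26.9, 26.4 and 29.1 TPM (1.82 ± 0.26). FGFR1, the main FGF receptor of the PSM, fell from 103, 74.3 and 73.2 TPM to 49.8, 45.3 and 35.9 TPM (-1.15 ± 0.22). Of FGFR1 and FGFR2, the first had the higher level in each day 2 library and the second in each day 3 library.

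**Figure D3:**
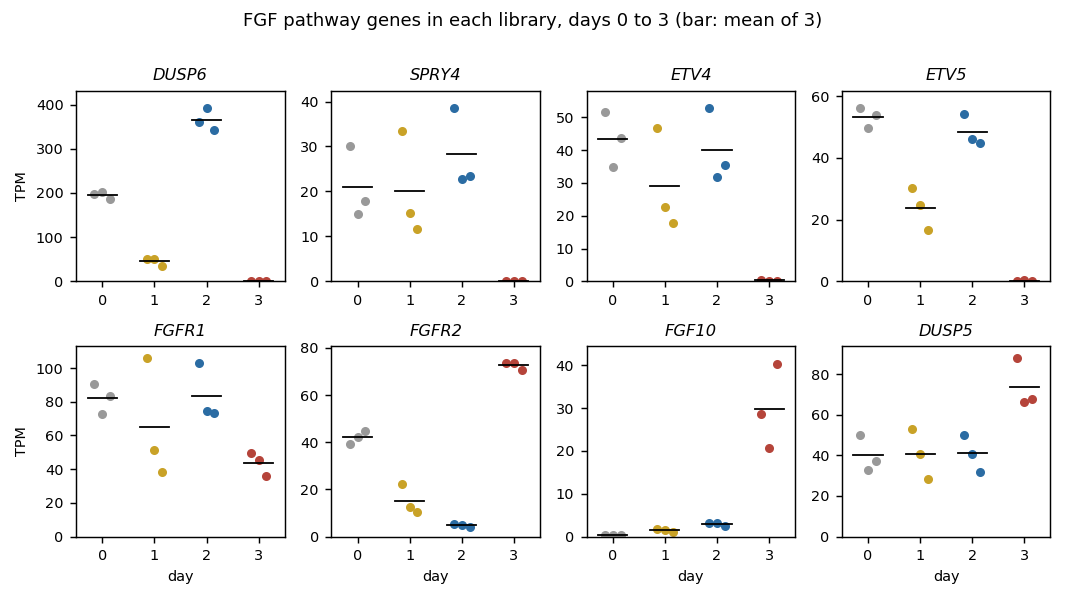
TPM of 8 FGF pathway genes in each of the 12 libraries (points, 3 a day) from day 0 to day 3, with the mean of each day as a bar, on axes that start at 0. DUSP6, SPRY4, ETV4 and ETV5 are near 0 on day 3 and nowhere else, FGFR1 is lower on day 3, and FGFR2 and FGF10 are higher.

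Most targets of canonical Wnt signalling fell too. Of 17 listed genes, all tested, 12 fell, 1 rose and 4 did not pass, with a median of -1.71. DKK1, a secreted Wnt inhibitor that Wnt itself induces, stood at 131, 136 and 170.0 TPM on day 2 and at 1.51, 1.63 and 4.69 TPM on day 3 (log2 fold change -6.02 ± 0.36). NKD1, an intracellular inhibitor, stood at 69.0, 45.0 and 52.3 TPM and then at 3.58, 2.01 and 1.27 TPM (-4.82 ± 0.26). CCND1, cyclin D1, stood at 105.0, 67.7 and 63.0 TPM and then at 3.39, 2.21 and 3.79 TPM (-4.86 ± 0.28). None of the 3 overlapped between days, and BMP4 was the 1 that rose, from 96.8, 64.0 and 78.4 TPM to 189, 219 and 184 TPM (1.08 ± 0.16).

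Among 15 tested Wnt ligands and inhibitors 6 fell, 5 rose and 4 did not pass. WNT3A, the ligand of the tail bud and posterior PSM, fell from 5.46, 3.34 and 3.80 TPM to 0, 0.480 and 0.610 TPM (log2 fold change -3.75 ± 0.60). WNT5B fell from 63.1, 47.1 and 74.0 TPM to 2.60, 3.52 and 0.650 TPM (-4.99 ± 0.35), and RSPO3, a secreted amplifier of Wnt, from 151, 102 and 112 TPM to 8.23, 5.26 and 7.54 TPM (-4.32 ± 0.29). WNT4 went the other way, from 0 in all day 2 libraries to 2.63, 4.23 and 2.96 TPM, at least 32.4-fold higher against a floor of 3 counts over the day 2 group.

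Genes of the retinoic acid pathway moved in both directions. Of 22 listed genes 18 were tested, 7 rose, 4 fell and 7 did not pass (median 0.86). RARB, the receptor gene that retinoic acid induces, stood at 0.910, 2.79 and 0.080 TPM on day 2 and at 35.2, 25.6 and 31.2 TPM on day 3 (log2 fold change 4.51 ± 0.58, adjusted p = 8.56e-06). NR2F2, an orphan nuclear receptor that responds to retinoic acid, stood at 1.88, 1.18 and 0.950 TPM and then at 55.0, 39.0 and 55.8 TPM (5.12 ± 0.33). Both separated the days completely. STRA6, the membrane receptor through which cells take up retinol, fell from 95.8, 56.4 and 53.6 TPM to 1.41, 1.45 and 1.74 TPM (-5.74 ± 0.39), and the synthetic enzyme ALDH1A2 fell as given above. The related enzyme gene ALDH1A1 rose from 2.98, 3.10 and 4.59 TPM to 23.9, 30.1 and 7.52 TPM (2.25 ± 0.43), still below ALDH1A2 in each day 3 library.

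HOX genes, which give the body axis its regional identity and open in order from the 3′ to the 5′ end of each cluster, were mostly lower on day 3. Of 39 listed genes 36 were in the table, 14 were tested, 8 fell, 2 rose and 4 did not pass, with a median of -2.11. HOXB1, a 3′ gene of its cluster, stood at 30.8, 21.3 and 25.6 TPM on day 2 and at 0, 0 and 0.910 TPM on day 3, with 220 counts against 2, a ratio of 94.0 with a 95% counting interval of 25.7 to 781.1. Before day 2 it had been at or near 0, with a mean of at most 0.110 TPM on days 0 and 1. The 2 that rose were HOXA13 and HOXD13, at the 5′ end of their clusters. On the 6 libraries alone 9 of the 14 HOX genes were tested, 7 fell and 0 rose. HOXA13 did not pass without day 2 library 1 (adjusted p = 0.0724), day 2 library 2 (0.0641) or day 3 library 1 (0.22), and HOXD13 went from 0.370, 0 and 0.350 TPM to 2.88, 0.780 and 2.62 TPM (log2 fold change 2.77 ± 0.70, adjusted p = 0.00366).

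Genes of BMP and Nodal signalling gave 7 higher, 5 lower and 10 not passed of 22 tested, near the shares over all genes, with a median of -0.11 whose sign differed between settings. ID4 and ID2, inhibitors of differentiation and direct targets of BMP signalling, were among the higher ones. The list also holds ID1 and ID3, which are not given here. ID4 stood at 10.4, 8.57 and 12.4 TPM on day 2 and at 239.8, 220.1 and 195 TPM on day 3 (log2 fold change 4.13 ± 0.18, adjusted p = 7.65e-11). ID2 stood at 9.97, 6.04 and 8.19 TPM and then at 107, 130 and 88.2 TPM (3.52 ± 0.24). SMAD9, a BMP-responsive transducer, held 1 count on day 2 and 33 on day 3, a ratio of 38.6 with a 95% counting interval of 6.46 to 1571. FST, the activin and BMP antagonist follistatin, fell from 108, 116 and 104.8 TPM to 20.9, 11.96 and 20.9 TPM (-2.84 ± 0.17).

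Of 13 tested Hedgehog genes, the pathway through which notochord and floor plate pattern the somite, 8 rose and none fell (median 0.845). The transcription factor and target GLI1 stood at 0.810, 0.630 and 0.320 TPM on day 2 and at 3.02, 3.23 and 6.44 TPM on day 3 (log2 fold change 2.63 ± 0.43). The co-receptors GAS1 (2.60 ± 0.32) and BOC (2.78 ± 0.50) rose from at most 2.75 TPM to at least 12.2 TPM and from at most 1.01 TPM to at least 3.39 TPM. With the requirement of more than a 2-fold change the count of higher Hedgehog genes was 4.

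**Figure D4:**
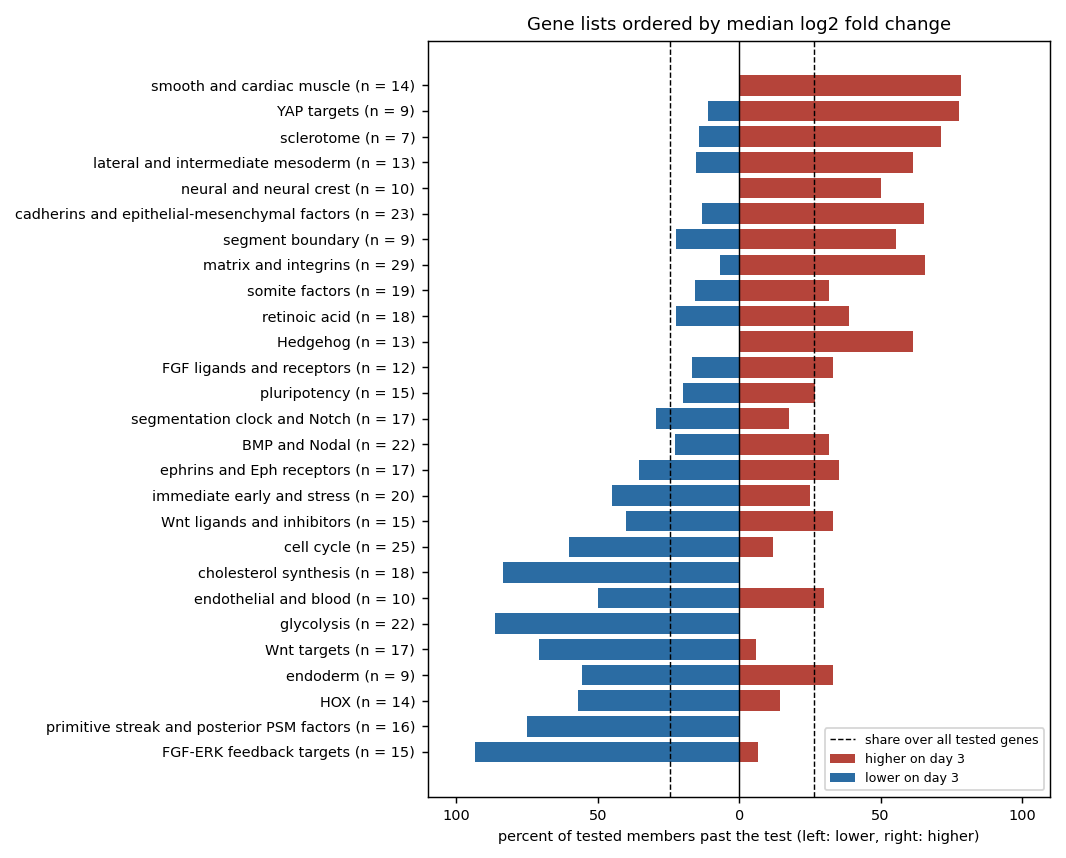
Share of the tested members of each list with at least 7 tested genes that passed as higher (right) or lower (left) on day 3, ordered by the list's median log2 fold change. Dashed lines mark the shares over all 13059 tested genes, 26.5% higher and 24.6% lower. Lists put together after their values were seen are not drawn, but those drawn were also chosen with earlier results of these data known. Among those drawn smooth and cardiac muscle genes stand at the top and FGF-ERK feedback targets at the bottom.

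Cell adhesion changed along with these factors. Of 23 tested cadherins and genes of the epithelial-mesenchymal switch, 15 rose, 3 fell and 5 did not pass (median 1.45). CDH1, E-cadherin (chromosome 6, 18075487 to 18155986), stood at 87.3, 57.9 and 50.9 TPM on day 2 and at 745, 581 and 475 TPM on day 3 (log2 fold change 2.99 ± 0.22, adjusted p = 1.54e-08). OCLN, occludin of the tight junction, stood at 32.8, 29.7 and 35.7 TPM and then at 267, 267 and 211 TPM (2.65 ± 0.15). The day 3 level of CDH1 was back at that of undifferentiated cells, which had a mean of 646 TPM, and that of OCLN was above it (152 TPM). SNAI1, a repressor of CDH1, fell from 77.4, 52.6 and 49.2 TPM to 5.49, 3.72 and 3.32 TPM (-4.04 ± 0.24), while its relative SNAI2 rose from at most 0.340 TPM to 18.4, 13.9 and 8.82 TPM (5.69 ± 0.75).

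Of 17 tested ephrins and Eph receptors 6 rose and 6 fell. The ephrin EFNA5 rose (log2 fold change 1.49 ± 0.24) together with EFNB2 and EFNA1, and the receptor EPHA2 fell from 26.0, 23.5 and 19.7 TPM to 2.54, 1.18 and 1.21 TPM (-4.03 ± 0.23).

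Matrix genes rose in 19 of 29 cases, with 2 lower (median 1.23). COL1A1 stood at 28.8, 17.4 and 15.8 TPM on day 2 and at 289.8, 193 and 202 TPM on day 3 (log2 fold change 3.27 ± 0.35), and COL1A2, the other chain of type I collagen, stood at 14.1, 11.5 and 10.3 TPM and then at 309.8, 193 and 288 TPM (4.24 ± 0.23). LAMA4, a laminin chain, rose from at most 1.12 TPM to 14.5, 11.8 and 9.65 TPM (3.42 ± 0.32). The integrin ITGA4 was lower on day 3 (-2.20 ± 0.28).

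Contractile genes had a median of 2.55. Of 14 smooth and cardiac muscle genes, all tested, 11 rose, none fell and 3 did not pass, and their summed level went from 100.4 to 250.3 TPM on day 2 to 5365 to 6237 TPM on day 3. ACTA2, smooth muscle actin, stood at 2.93, 10.8 and 2.90 TPM and then at 916, 1019.6 and 788 TPM (log2 fold change 7.20 ± 0.32, adjusted p = 6.94e-11). TAGLN, an actin-binding protein of smooth muscle, stood at 41.3, 37.2 and 37.0 TPM and then at 3897, 4080.1 and 3426 TPM (6.40 ± 0.20). TNNI1, slow skeletal troponin I, which is also made in the early heart, stood at 0.410, 3.43 and 1.38 TPM and then at 88.8, 78.7 and 98.8 TPM (5.48 ± 0.40). The 2 days did not overlap for any of these 3 genes.

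A list of YAP and TEAD target genes, which respond to cell stretch and density, also held the factors TEAD1, TEAD2 and TEAD4. Of its 9 tested genes 7 rose (median 1.97), and TEAD4 was the 1 that fell (log2 fold change -0.81), with overlapping groups. TEAD4 did not pass in limma on TPM, with a minimum fold of 2, or without day 3 library 2 or 3. ANKRD1 stood at 22.4, 34.0 and 10.97 TPM on day 2 and at 641, 755 and 575 TPM on day 3 (log2 fold change 4.67 ± 0.36). CCN2, a secreted matrix protein, stood at 6.01, 5.86 and 3.74 TPM and then at 78.7, 75.2 and 68.8 TPM (3.64 ± 0.22), and AXL, a receptor kinase, rose as well (2.58 ± 0.25).

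**Figure D5:**
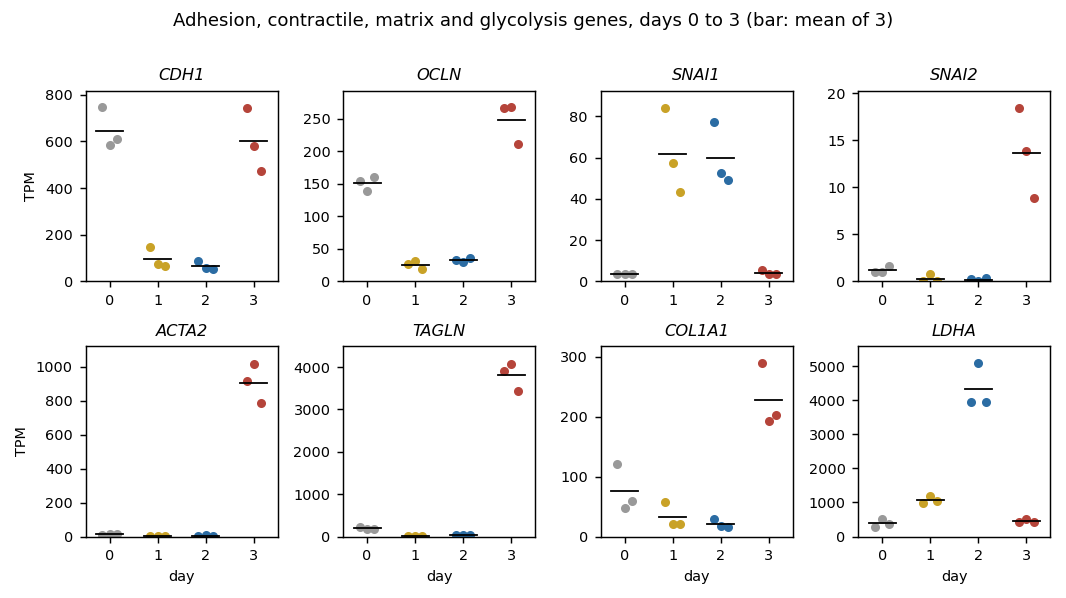
TPM of 8 adhesion, contractile, matrix and glycolysis genes in each of the 12 libraries (points, 3 a day) from day 0 to day 3, with the mean of each day as a bar, on axes that start at 0. CDH1 and OCLN return on day 3 to levels like those of day 0 or above, SNAI1 and SNAI2 exchange places, ACTA2 and TAGLN are high on day 3 alone, and LDHA peaks on day 2.

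Markers of neighbouring and other lineages moved between the days, and their part in the results above was not tested. Of 13 tested genes of lateral and intermediate mesoderm 8 rose and 2 fell, and the list's summed level went from 118.2 to 187.2 TPM on day 2 to 330.8 to 342.5 TPM on day 3. OSR1, a zinc finger gene of both tissues, stood at 0.230, 0 and 0.390 TPM and then at 25.1, 19.2 and 43.3 TPM (log2 fold change 6.57 ± 0.62). HAND2, a bHLH gene of lateral mesoderm, held 1 count and then 38, a ratio of 44.5 with a 95% counting interval of 7.51 to 1802, and ISL1, a homeobox gene of lateral mesoderm, rose (3.77 ± 0.74). BMP4, given above with the Wnt targets, also belongs to this list and made up most of its day 3 sum. LHX1, given above with the streak genes, belongs to it too and was 1 of the 2 that fell (-2.79). PAX2, which defines intermediate mesoderm, was at 0 in all day 3 libraries, after at most 0.530 TPM on day 2. Genes of amnion, surface ectoderm and simple epithelium, a list put together after its values were seen, had a summed level of 606.4 to 621.2 TPM on day 2 and of 3480 to 4480 TPM on day 3. Of its 24 tested genes 22 passed as higher and none as lower (median log2 fold change 3.57), while TP63, a defining factor of stratified epithelium, stood at 0.390, 0 and 0.140 TPM and then at 0.080, 0.540 and 0.380 TPM and was not tested. The list itself holds CLDN1, GATA2 and GATA3, and the part of such cells in the rises of CDH1 and OCLN was not tested.

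Of 10 tested endothelial and blood genes 5 fell and 3 rose, with summed levels of 98.8 to 131.7 TPM on day 2 and 49.9 to 59.0 TPM on day 3. LMO2, a partner of blood and endothelial factors, fell from 59.3, 42.9 and 62.5 TPM to 3.13, 3.64 and 2.32 TPM (log2 fold change -4.41 ± 0.28), and ETV2, the factor that starts the endothelial program, fell from 9.91, 10.2 and 6.48 TPM to at most 1.86 TPM (-3.01 ± 0.49). The defining endothelial genes PECAM1 and CDH5 were untested, at no more than 1.85 TPM in any of the 6 libraries. GATA2, a blood and epithelial factor, rose from at most 0.430 TPM to 18.5, 14.7 and 13.7 TPM (6.41 ± 0.55).

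Of 9 tested endoderm genes 5 fell and 3 rose, with summed levels of 993.2 to 1173 TPM and then 1217 to 1613 TPM. Members other than CXCR4, PRDM1 and GATA3 made up most of the day 3 sum and account for its rise. CXCR4, a chemokine receptor of definitive endoderm that mesoderm also carries, fell from 277, 328 and 382 TPM to 16.0, 15.3 and 12.3 TPM (log2 fold change -4.74 ± 0.26), PRDM1 fell (-3.02 ± 0.37) and GATA3 rose from 2.37, 1.91 and 1.14 TPM to 26.0, 26.2 and 15.9 TPM (3.58 ± 0.38). Of 10 tested neural and neural crest genes 5 rose and none fell, with IRX3 at 2.45 ± 0.36, and the count was 3 without day 2 library 3 or day 3 library 1. Summed levels were 57.1 to 81.4 TPM and then 185.6 to 262.4 TPM, while SOX1 and SOX10, which define neural and crest cells, stayed at or under 0.340 TPM.

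Pluripotency genes split 4 higher, 3 lower and 8 not passed of 15 tested, near the shares over all genes, with a median of 0.0495. POU5F1, which encodes OCT4, stood at 132, 131 and 145 TPM on day 2 and at 13.5, 14.9 and 17.4 TPM on day 3 (log2 fold change -3.37 ± 0.17), under the day 0 mean of 717 TPM on both days. OTX2 rose from 5.30, 7.67 and 5.53 TPM to 71.2, 78.3 and 53.2 TPM (3.27 ± 0.22). SOX2 rose from 2.55, 2.75 and 3.34 TPM to 9.10, 7.63 and 11.2 TPM (1.41 ± 0.38), against a day 0 mean of 174 TPM.

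Many genes of cell division and metabolism fell between the days. Of 25 cell cycle genes, all tested, 15 fell, 3 rose and 7 did not pass (median -1.0), and with the requirement of more than a 2-fold change 4 fell. Besides CCND1, the G1/S cyclin genes CCNE2 and CCNE1 fell, CCNE2 from 22.7, 23.8 and 22.6 TPM to 2.64, 3.03 and 5.49 TPM (log2 fold change -2.86 ± 0.33) and CCNE1 from 31.8, 33.1 and 33.9 TPM to 11.06, 8.04 and 10.8 TPM (-1.96 ± 0.18). CDKN2B, the inhibitor p15 of cyclin D kinases, held 2 counts on day 2 and 317 on day 3, a ratio of 185.5 with a 95% counting interval of 50.9 to 1538.

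Glycolysis genes fell in 19 of 22 cases, all tested, and none rose (median -1.62). LDHA, lactate dehydrogenase, stood at 3942, 5099 and 3961 TPM on day 2 and at 424, 517 and 428 TPM on day 3 (log2 fold change -3.46 ± 0.24, adjusted p = 8.91e-09). ALDOC, an aldolase, stood at 202, 233 and 137 TPM and then at 22.1, 20.6 and 21.9 TPM (-3.37 ± 0.20), and PDK1, the kinase that holds pyruvate back from the mitochondria, stood at 255, 259 and 176 TPM and then at 30.6, 37.8 and 31.0 TPM (-3.02 ± 0.20). Day 2 was the high point of the course for all 3, since their day 0 and day 1 means were also below the day 2 libraries.

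Cholesterol synthesis genes fell in 15 of 18 tested cases, and none rose (median -1.08). HMGCS1, the enzyme ahead of the rate-limiting step, stood at 1039.7, 1208 and 889 TPM on day 2 and at 262, 265 and 269 TPM on day 3 (log2 fold change -2.15 ± 0.17), and MSMO1 (-1.73 ± 0.21) and MVD (-1.68 ± 0.14), later enzymes of the pathway, fell as well. Of 20 immediate early and stress genes 9 fell and 5 rose. FOS (-2.72 ± 0.55) and EGR1 (-2.01 ± 0.34), immediate early genes downstream of ERK, fell, and so did DDIT4, an inhibitor of mTORC1 (-1.97 ± 0.21). ATF3, a stress-induced factor, rose from 10.8, 9.19 and 8.23 TPM to 173, 171 and 139 TPM (3.89 ± 0.23).

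Among all genes with a symbol and a mean of at least 10 TPM on one of the days, the 10 lowest fold changes held MSGN1, EVX1, DUSP6, SPRY4, ETV4 and ETV5, described above, and 4 others. PLPP4, a lipid phosphatase, went from 46.9, 32.1 and 37.3 TPM to 0 in all day 3 libraries, at least 132.5-fold lower, and PLA2G5, a secreted phospholipase A2, from 14.1, 16.1 and 14.3 TPM to 0, at least 69.2-fold lower. PLA2G2E (chromosome 6, 78278080 to 78282253), a relative in the same stretch of the chromosome as PLA2G5 (78365697 to 78376383), held 212 counts and then 1, a ratio of 181 with a 95% counting interval of 32.2 to 7190.0. VRTN, a gene known for its link to vertebral number in pigs, stood at 30.9, 24.1 and 27.2 TPM on day 2 and at 0, 0.13 and 0.5 TPM on day 3 (log2 fold change -7.17 ± 0.40).

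The 10 highest fold changes held epithelial, matrix and transport genes. CLDN1, a tight junction claudin, went from 0.330, 0 and 0 TPM to 79.5, 89.3 and 78.4 TPM, with 1 count against 750, a ratio of 878 with a 95% counting interval of 157 to 34710.0. GABRP, a GABA receptor subunit of epithelia, stood at 0.25, 0 and 0.43 TPM and then at 167, 139 and 125 TPM (log2 fold change 9.47 ± 0.29), and PLET1, a marker of placental and other epithelia, at 1.00, 0 and 0.940 TPM and then at 278, 305 and 192 TPM (8.25 ± 0.38). LY6G6C, a surface protein gene, held 2 counts and then 842. TF, transferrin, held 1 count and then 1028, with 55.4, 65.6 and 52.7 TPM on day 3.

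The other 5 of the highest were close to 0 in the day 2 libraries. SCIN, the actin-severing protein scinderin, was at 0 and then at 17.1, 16.9 and 15.6 TPM, at least 141-fold higher, and TAL2, a bHLH factor, was at 0 and then at 11.6, 18.0 and 14.8 TPM, at least 152-fold higher. MMP23B, a metalloproteinase, and MFAP5, a microfibril protein, were at 0 on day 2 and at least 61.2-fold and 39.8-fold higher on day 3. OGN, a matrix proteoglycan, stood at 0, 0.060 and 0 TPM and then at 10.7, 11.6 and 28.6 TPM. TAL2, SCIN and GABRP were also present on day 0, at means of 3.81, 6.90 and 31.9 TPM.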

How the data were processed

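Of 36 libraries of total RNA (QIAGEN RNeasy Plus Mini kit and ligation-mediated sequencing, per the labels' protocols), 6 were compared and 12 fitted. The submitters' processing notes name bcl2fastq, Bowtie 1.2.3, RSEM 1.2.3 and Sscrofa11.1. The sources used here do not say whether strand was kept, and overlapping, antisense or near-identical genes may share reads. The authors deposited expected counts per gene, which RSEM assigns in part by estimation, and TPM, which corrects them for length and library total. The table held 20683 genes, 3061 at 0 in all 12 libraries, and 20622 symbols matched RefSeq on Sscrofa11.1, whose coordinates are given. TBXT stands in it as T.

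Expected counts were rounded (a mean change of 0.0162%) and tested in R 4.3.3 with edgeR 4.0.16 (quasi-likelihood test, TMM scaling, filterByExpr with a minimum count of 10) over days 0 to 3. The SE is the size of the log2 fold change divided by the square root of F. TPM values are per library and entered no main test. A gene at 0 in a group was set against a floor of 3 counts over that group; with 1 to 3 counts the ratio of counts per library total is given with an exact 95% interval. Both cover counting error only. Within-group pairs of libraries differed beyond sampling noise. Their chi-square per degree of freedom was 3.43 to 40.1 over days 0 to 3, and 4.83 to 13.9 within the day 2 and day 3 groups. Each library was counted as 1 replicate, although this scatter does not show that the libraries are separate cultures.

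Lists and members were chosen with earlier results of these data known. The naming rule took all tested members of the 4 lists on streak and PSM, clock and Notch, boundary and somite factors; for other lists up to 3 members changed most in the commoner direction and 1 in the other; and the 10 highest and 10 lowest genes of at least 10 TPM without overlap. The text names part of these, chosen with the alternatives' values in view, and genes beyond the rule (COL2A1, PAX1, PAX9, NKX3-2, MYF5, HOXA13, PAX2, PECAM1, CDH5, SOX1, SOX10 and untested members) were chosen after their values were seen. Members not analysed here were PCDH8, BAPX1, CYP26B1, CYP26C1, RARG, HOXB4, HOXB9, HOXD4, PAX8, CCN1 and a few others. A few genes under this rule are not reported here but stay in the counts. Alternatives were the 6 libraries alone, DESeq2 1.42.0, RLE scaling, no filter, a minimum fold of 2, a replicate block, limma 3.58.1 on log2(TPM + 1) and log2(TPM + 0.1), and leaving out each library. Each test was tried on simulated counts.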

Additional observations from a re-analysis of the deposited data

How the results depend on the processing

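Of 152 named genes with a fold change, 127 kept their direction and side of the threshold in each of the 15 alternatives that tested them. The 131 that passed kept their direction wherever they were tested. On the 6 libraries alone 135 named genes kept both, 1 no longer passed, and the others were not tested. Against 6678 genes that passed, the count was 6421 on the 6 libraries alone, 6827 with DESeq2, 6667 with RLE scaling, 6858 without the filter and 6480 to 6840 with limma on TPM. Requiring more than a 2-fold change left 2032 genes, 1414 higher and 618 lower, and fewer list members: 3 higher sclerotome genes, 0 dermomyotome, 3 retinoic acid, 4 Hedgehog, 3 ephrin and Eph, 11 matrix, 2 neural and 2 pluripotency genes, and 7 lower Wnt targets, 3 endoderm, 4 cell cycle, 7 cholesterol and 4 immediate early and stress genes. Limma on log2(TPM + 1) gave 2 higher dermomyotome genes with and without the filter, and 5 lower immediate early and stress genes without it. The 6 libraries alone gave 3 lower endoderm genes and 0 higher HOX genes. Leaving out each library gave 5724 to 6785 genes that passed, 3 to 5 higher sclerotome genes and 3 to 6 higher neural genes. HEY2 did not pass on the 6 libraries alone (adjusted p = 0.0585).

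Deviations from the group mean correlated at 0.224, 0.0639 and 0.0198 between same-numbered libraries of the 2 days. Pairs with different numbers ran from -0.137 to 0.0823. Libraries numbered 1 also deviated together from day 0 to day 1 (0.281) and from day 1 to day 2 (0.406). What same-numbered libraries share was not tested, and the main test did not pair them. With the replicate number as a block 7468 genes passed, 3840 higher and 3628 lower, 6637 of them among the 6678.

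Directions that turned all belonged to genes that did not pass in either setting. In limma on log2(TPM + 1), with and without the filter, JAG1 was at 0.0307, and on log2(TPM + 0.1) JAG1 was at 0.0327 and MESP2 at -0.12. On leaving out a library, HES1 ran from -0.501 to 0.397, MESP2 from -3.72 to 1.05, PAX1 from -0.87 to 0.164 and TWIST1 from -0.0732 to 0.269. Low counts limit MESP2, RIPPLY2, UNCX, PAX3 and the untested sclerotome genes, in which no difference could be tested or detected at these depths. Whether the day or the medium sets a change cannot be told apart, and the cause of the changes between settings was not tested.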

Other observations

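The genes and families below were chosen after their values were seen and are given as values. Further members of the adhesion list included 2 epithelial genes that rose: CLDN4, a claudin, stood at 166, 177 and 186 TPM on day 2 and at 1057, 1211 and 970 TPM on day 3 (log2 fold change 2.40 ± 0.15), and EPCAM, an epithelial adhesion molecule, at 135, 145 and 149.8 TPM and then at 412, 459 and 333 TPM (1.25 ± 0.17). The intermediate filament gene VIM, common in mesenchyme, stood at 481, 362 and 369 TPM and then at 540, 490 and 594 TPM and did not pass on counts (0.21 ± 0.13, adjusted p = 0.176) but passed in limma's test on log2(TPM + 1) (0.43, adjusted p = 0.0369). CDH2, N-cadherin, fell from 286, 217 and 202 TPM to 157, 118 and 115 TPM (-1.07 ± 0.14). IGFBP3, which binds insulin-like growth factors, stood at 24.2, 13.2 and 14.2 TPM and then at 239.7, 174 and 186 TPM (3.33 ± 0.20).

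The medians of 2 families of housekeeping genes lay below that of all genes. Of 75 genes of cytosolic ribosomal proteins 69 passed as lower and none as higher (median log2 fold change -0.60). Of 69 tested genes of oxidative phosphorylation 46 passed as lower, none as higher and 23 did not pass (median -0.67). With the requirement of more than a 2-fold change 0 ribosomal and 2 oxidative phosphorylation genes were lower. Limma on log2(TPM + 1) gave 52 and 41 lower genes, and 0 and 1 higher. Under the alternative settings these medians ran from -0.712 to -0.376 and from -0.762 to -0.443, the smaller sizes being those on the TPM scale, where the median of all genes was higher by about 0.2. Of 21 genes known to respond to low oxygen 13 passed as lower, 3 as higher and 5 did not pass (median -0.73), and their summed level went from 9134 to 11160 TPM on day 2 to 2118 to 2305 TPM on day 3. Among them the glucose transporter gene SLC2A1 stood at 177, 100 and 85.0 TPM on day 2 and at 196, 149 and 123 TPM on day 3 (0.17 ± 0.27, adjusted p = 0.621), and VEGFA, the vascular growth factor, at 24.1, 19.0 and 7.29 TPM and then at 29.8, 31.2 and 44.0 TPM (0.99 ± 0.25). This low oxygen list shares SLC2A1 and LDHA with the glycolysis list. LDHA, given above, had its largest fall and made up a large part of its day 2 sum. Of 19 genes known to respond to TGF-beta 15 passed as higher, 1 as lower and 3 did not pass (median 2.83), and their summed level went from 873 to 1135 TPM to 9216 to 10330.0 TPM.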
